A study of Tachysurus ussuriensis with 12 samples.

Results

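Of the 84875 assembled transcripts measured in gill and kidney of the Ussuri catfish, 83 were present in every kidney library, nearly absent from every gill library, and at similar levels in kidney at both sampling times. They were chosen on their measured values. A transcript was taken if its level was 3 FPKM or more in each of the 6 kidney libraries but below 0.1 FPKM in each of the 6 gill libraries. In addition, its mean log2(FPKM + 1) in kidney had to differ by less than 1 between 24 h and 0 h. FPKM is the number of sequenced fragments per length of transcript and per number of fragments mapped in the library. The contrast between the tissues and the contrast between the kidney times therefore made the set, and the members' values in both are given below as a description. Where limma calls of the members are listed, the rule had fixed or capped their outcome, and nothing is read from them.

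The study compared gill and kidney of Tachysurus ussuriensis, a freshwater bagrid catfish also placed in the genus Pseudobagrus, under acute salinity stress. Total RNA of whole tissue was sequenced in 12 libraries that form 4 groups of 3: gill at 0 h, gill at 24 h, kidney at 0 h and kidney at 24 h. The labels give no salinity, strain, age or sex, nor do they say if each of the 3 samples was taken from its own fish, which leaves it unknown how much of their spread is technical. They name no group kept for 24 h without salinity stress, so salinity and elapsed time cannot be told apart. In whole tissue, fewer cells of a type and less RNA per cell cannot be told apart.

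The functional unit of the fish kidney is the nephron, in which a glomerulus filters the blood and the tubules and collecting duct then take back ions, sugars and amino acids. In freshwater fish the kidney excretes a large volume of dilute urine, and the teleost kidney also holds haematopoietic and endocrine tissue between the tubules. The gill exchanges gases and carries ionocytes that take up or secrete salt. Many genes of tubule transport, filtration and blood formation are known to be used in kidney far more than in gill. The deposited table lists each transcript under an ID of the assembler Trinity and pairs no ID with a gene name, a sequence or a length. No function is therefore given to any transcript here, and markers of nephron, blood or gill cells were not matched.

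The FPKM of all transcripts added up to between 631998 and 714003 in a library, and sequencing depth relative to each other, read from the steps between low values, ran from 0.869 to 1.12. The absolute depth is unknown. Kidney 0 h replicate 2 stood apart from the other kidney libraries. It correlated with the other 5 at 0.816 to 0.838 on the log2 scale, whereas those correlated among themselves at 0.865 to 0.912. It also held 18 transcripts at 3 FPKM or more that were below 0.1 FPKM in all other 11 libraries, against 0 to 10 such transcripts in each of the others. The main results on the members that rest on it are given with and without it.

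Very few of the transcripts present throughout the kidney were limited to it. In all, 19028 transcripts reached 3 FPKM in each of the 6 kidney libraries, and the 83 members were 0.436% of them. Of these 19028 transcripts, 92 stayed below 0.1 FPKM in every gill library. The kidney difference between times was below 1 for 83 of the 92 (90.2%), against 97.1% of all 19028. The other 9 comprised 7 that were higher at 24 h by 1 or more and 2 that were lower by 1 or more. The same rule with the tissues exchanged gave 225 gill-limited transcripts, of which 205 were within the limit over time. Whether the numbers of kidney-limited and gill-limited transcripts differ beyond the spread of the libraries was not tested.

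**Figure D1:**
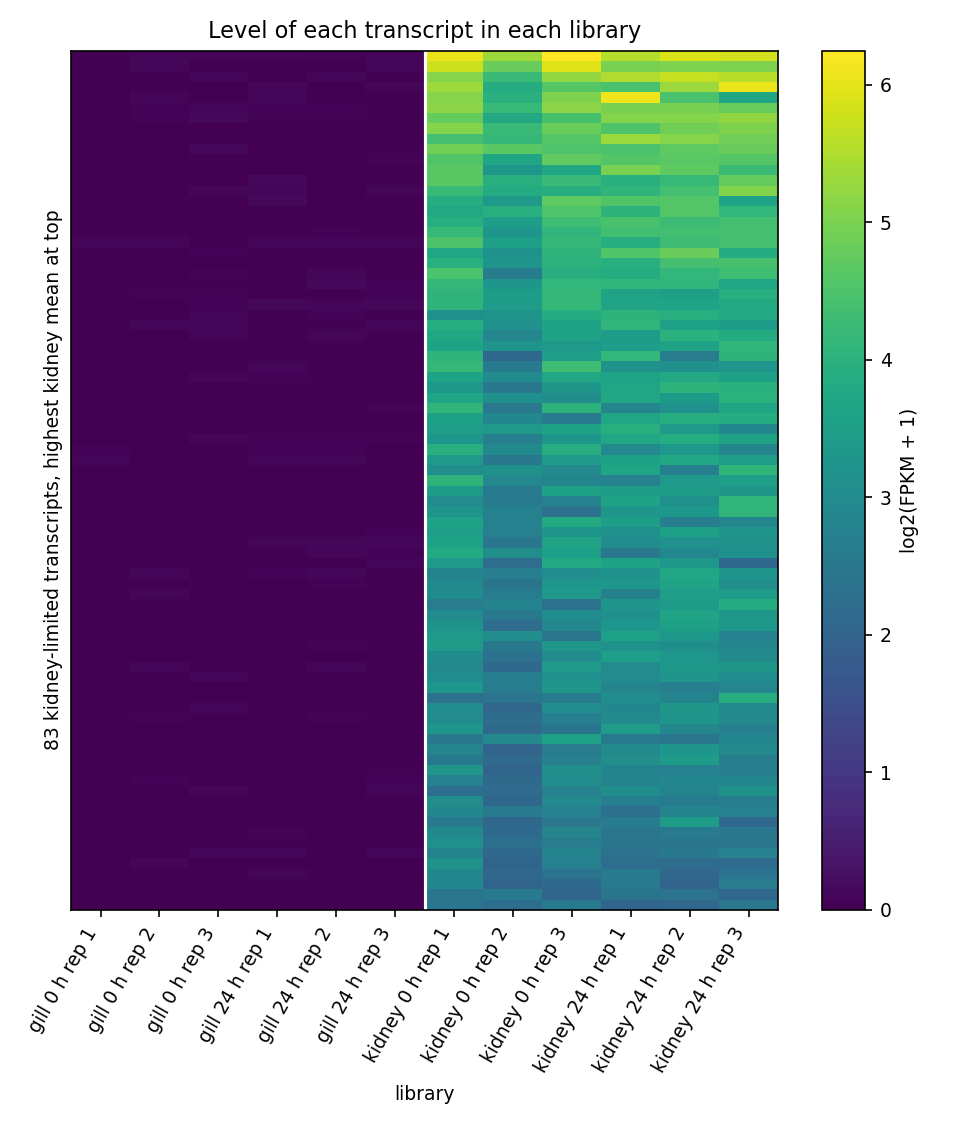
Level of each of the 83 members (rows, ordered by mean kidney level) in the 12 libraries (columns), coloured by log2(FPKM + 1). All members are near 0 in the 6 gill libraries, and kidney 0 h replicate 2 is darker (lower) than the other 5 kidney libraries over most rows.

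The members' mean over the 6 kidney libraries ran from 4.02 to 56.9 FPKM, with a median of 9.03 and quartiles of 6.79 and 15.2 FPKM. Of the 83, 6 had a kidney mean below 5 FPKM, 39 from 5 to below 10, 27 from 10 to below 20, 10 from 20 to below 50, and 1 above 50. Over all 19028 transcripts the median was 11.8 FPKM, the upper quartile 21.3 FPKM and the highest value 8000 FPKM, and 11 members lay above that upper quartile. Together the members made up 0.172% to 0.179% of all FPKM in 5 of the kidney libraries, and 0.101% in kidney 0 h replicate 2. In the gill libraries their summed level was between 0.339 and 1.495 FPKM.

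TRINITY_DN27692_c0_g1_i1_4 had the highest kidney level of the set. It was at 66.5, 39.6 and 74.95 FPKM in the 0 h kidney libraries and at 46.2, 58.7 and 55.4 FPKM in those of 24 h. The highest and the lowest of the 6 values were both from 0 h, and the 24 h values lay between them. The group means were 60.3 ± 18.5 FPKM (SD, n = 3) at 0 h and 53.4 ± 6.46 FPKM (SD, n = 3) at 24 h, a difference of -0.13 on the log2 scale. This transcript was listed above 0 in all 6 gill libraries, between 0.0233 and 0.0744 FPKM.

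TRINITY_DN1588_c0_g1_i1_4 was next. It was at 53.5, 27.0 and 60.2 FPKM at 0 h and at 30.7, 32.0 and 32.0 FPKM at 24 h. The 24 h libraries were close to the lowest of the 0 h values, which came from kidney 0 h replicate 2, and the other 0 h libraries were higher. The difference of -0.48 became -0.83 without that library.

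TRINITY_DN11028_c0_g1_i1_3 was at 33.8, 17.7 and 36.4 FPKM at 0 h and at 44.0, 51.2 and 47.1 FPKM at 24 h. Its groups did not overlap, every 24 h library being above every 0 h library. The difference was 0.74 with all libraries and 0.42 without kidney 0 h replicate 2. TRINITY_DN25779_c0_g1_i1_4 was at 39.6, 13.7 and 23.1 FPKM at 0 h and at 21.1, 38.7 and 65.8 FPKM at 24 h. Its values were spread 4.82-fold from lowest to highest and the groups overlapped.

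At the lower end, TRINITY_DN43629_c0_g1_i1_4 was at 4.44, 3.75 and 4.999 FPKM at 0 h and at 3.09, 3.30 and 4.54 FPKM at 24 h, and was listed at 0 in all 6 gill libraries. TRINITY_DN26385_c0_g3_i1_3 was at 4.44, 5.02 and 3.11 FPKM at 0 h and at 4.38, 4.21 and 3.34 FPKM at 24 h. For neither did the values of the 2 times separate. FPKM carries the scaling for length, so these levels can be set beside those of the highest members.

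**Figure D2:**
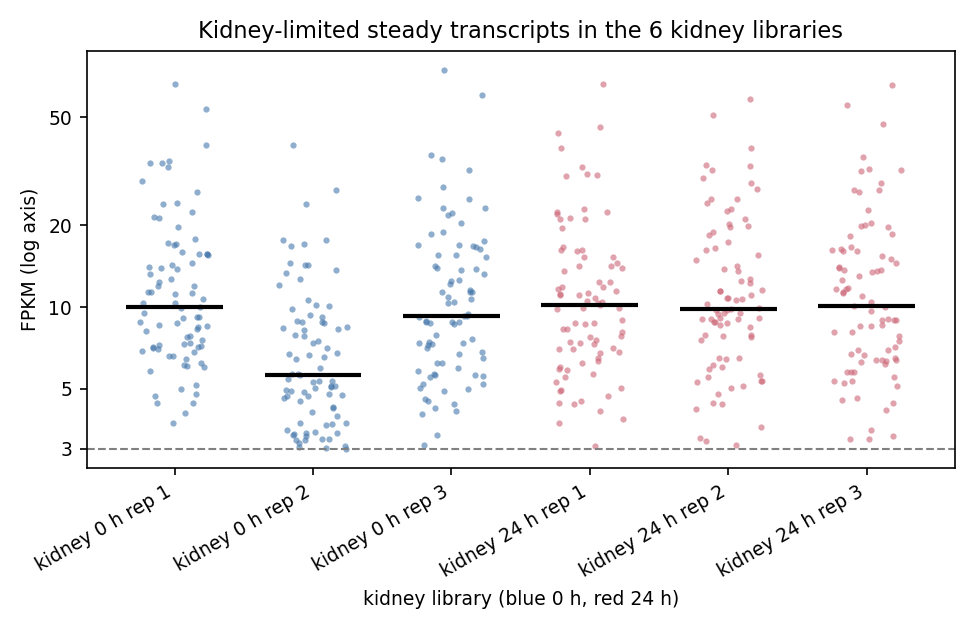
FPKM (log axis) of the 83 members in each of the 6 kidney libraries; each point is a transcript and the bars are medians. The medians lie between 9.30 and 10.2 FPKM in 5 libraries and at 5.60 FPKM in kidney 0 h replicate 2.

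Steadiness within the groups also varied among the members. The mean SD of log2(FPKM + 1) within the kidney groups ran from 0.18 to 0.94, with a median of 0.33, against a median of 0.30 over the 19028 transcripts. TRINITY_DN26326_c0_g1_i10_3 had the smallest. It was at 29.2, 23.9 and 22.1 FPKM at 0 h and at 21.3, 24.96 and 27.1 FPKM at 24 h, so that its 6 values lay within 1.37-fold of each other. TRINITY_DN25701_c1_g3_i4_3 had the largest. It was at 33.9, 14.5 and 32.1 FPKM at 0 h and at 66.5, 21.1 and 11.7 FPKM at 24 h. The means of the 2 times of this transcript differed by 0.03, but its single libraries differed by up to 5.70-fold. Its place in the set rests on means of widely scattered values. Over all 83 members the ratio of the highest to the lowest kidney library had a median of 2.33.

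The gill values were at or close to the lower end of what the table records. Of the 83 members, 22 were listed at 0 in all 6 gill libraries, and 281 of the 498 gill values were 0. A value above 0 need not stand for a fragment, because the smallest was 3.17e-88 FPKM. For 6 members the highest gill value was above 0 but below 0.001 FPKM, and for the remaining 55 it was at least 0.001 FPKM. In 31 members, 2 or more gill values were above 0 and all of these, corrected for relative depth, were at least 0.003 FPKM. Members with any smaller value above 0 were left out. For 19 of the 31, all such values were whole multiples of the smallest of them, the step, within 3%. With the step taken as a single fragment, the gill values of these 19 amounted to 2 to 8 fragments in all. Their kidney values amounted to 59.0 to 1327 of the same steps, with a median of 294. This reading is an estimate from the spacing of the values. The table holds no counts.

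At the limits of the rule the levels were continuous. The member nearest the kidney floor, TRINITY_DN22617_c0_g1_i1_3, had a lowest kidney value of 3.01 FPKM, and TRINITY_DN17981_c0_g1_i1_3, which missed it, had 2.97 FPKM. Both of these values came from kidney 0 h replicate 2. The highest gill value of a member was 0.0963 FPKM in TRINITY_DN24412_c1_g1_i3_4, whereas TRINITY_DN24380_c0_g1_i5_3 missed the gill ceiling with 0.101 FPKM.

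Between the kidney times the members differed by -0.63 to 0.94 on the log2 scale, with a median of 0.23 and quartiles of -0.06 and 0.50. Of the 83, 56 were higher and 27 lower at 24 h in their means. The median over the 19028 transcripts was 0.04. Without kidney 0 h replicate 2 the median of the members was -0.016, with 39 above 0 and 44 below, and the median over the 19028 transcripts was 0.03. The small excess of values above 0 in the set was thus not present without that library. Absolute differences were below 0.5 for 60 members, and 6 members were at 0.8 or above.

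The member with the largest positive difference was TRINITY_DN27475_c0_g5_i1_3. It was at 5.16, 5.95 and 4.14 FPKM at 0 h and at 8.76, 9.73 and 13.7 FPKM at 24 h. All 24 h libraries were higher than all 0 h libraries, and the difference of 0.94 was 1.04 without kidney 0 h replicate 2, which is past the limit. Just outside the limit, TRINITY_DN22666_c0_g1_i3_1 was at 15.2, 10.6 and 18.8 FPKM at 0 h and at 28.6, 41.5 and 28.3 FPKM at 24 h, a difference of 1.11. That transcript came within the limit, at 0.90, without the same library.

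The most negative member was TRINITY_DN26566_c0_g1_i1_3. It was at 13.2, 7.51 and 10.5 FPKM at 0 h and at 4.68, 6.504 and 7.81 FPKM at 24 h, a difference of -0.63, and the groups overlapped in the values of kidney 0 h replicate 2 and kidney 24 h replicate 3. TRINITY_DN26475_c0_g2_i1_4, just outside, was at 9.92, 8.29 and 14.9 FPKM at 0 h and at 4.31, 4.55 and 4.60 FPKM at 24 h. Its groups did not overlap, and the difference was -1.10.

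**Figure D3:**
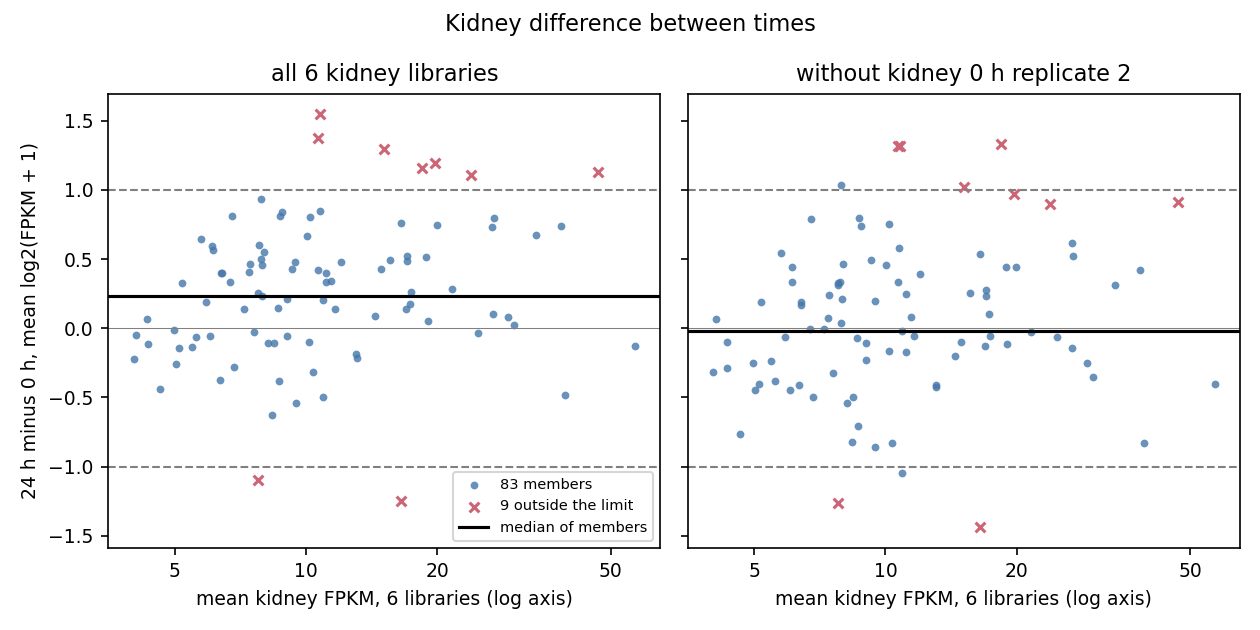
Kidney difference between 24 h and 0 h, on the log2(FPKM + 1) scale, against mean kidney FPKM (log axis) for the 83 members (circles) and the 9 kidney-limited transcripts outside the limit of 1 (crosses), with all kidney libraries (left) and without kidney 0 h replicate 2 (right). The heavy line is the median of the members, 0.23 on the left and -0.016 on the right.

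The rule limits the measured difference and not its error. A single limma model with 4 group means was fitted to the 75716 transcripts that reached 1 FPKM in at least 3 libraries, and it gave each member a 95% interval of its kidney difference. The interval lay wholly within the limit of 1 for 46 of the 83 members, and for the other 37 it reached past the limit. Its half-width ran from 0.39 to 1.08, with a median of 0.54. Among all transcripts at 3 FPKM or more in every kidney library and within the limit, the share whose interval lay within it was 74.5%. Because the members are near 0 in gill, where they hardly vary, the gill libraries tended to lower their spread in the shared model. This did not hold for every member. TRINITY_DN26326_c0_g1_i10_3 had an SE of 0.178 in the shared model and 0.157 in a fit to kidney alone. In the fit to the kidney libraries alone the median half-width was 0.70, and the interval lay within the limit for 33 members. That fit also estimates the spread from fewer libraries, which by itself widens an interval.

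No member passed an adjusted p of 0.05 for the kidney difference in limma with Benjamini-Hochberg adjustment over all transcripts tested, where 0.824% of transcripts passed. The lowest adjusted p of a member was 0.0779 in limma. At an unadjusted p under 0.05 there were 21, of which 20 were higher at 24 h, and 11 in the fit to kidney alone, which also gave 0 members past the adjusted threshold. The share of all transcripts tested at that unadjusted level is not given here. The 3 libraries of one kidney time lay wholly above those of the other in 17 members, all higher at 24 h. Over all transcripts tested, 12% did not overlap with higher values at 24 h and 3.75% with lower values. The rule capped this difference, so nothing is read from these counts. Between tissues all 83 members passed as higher in kidney, against 19.8% of transcripts tested. The rule had fixed this outcome, so it is no result about the members.

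Kidney 0 h replicate 2 held less of the set than any other kidney library. It was the lowest of the 6 kidney libraries for 60 of the 83 members and the highest for 1. Over the 19028 transcripts it was the lowest for 45.8% and the highest for 27.4%. The members were lower there than in the mean of the other 0 h kidney libraries in 79 of 83 cases, with a median log2 difference of -0.67 and quartiles of -0.91 and -0.37. In FPKM the median ratio to that mean was 0.589 for the members and 0.786 for the 19028 transcripts.

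The deficit in that library varied with the gill level of the transcripts. Among transcripts at 3 FPKM or more in all 6 kidney libraries, the median log2 difference from the other 0 h libraries was -0.66 for the 92 that stayed below 0.1 FPKM in every gill library. It was -0.65 for 539 further transcripts with a gill mean below 1 FPKM and -0.56 for 1252 with a gill mean of 1 to 3 FPKM. It was -0.23, -0.25 and -0.31 for 7785 transcripts at 3 to 10 FPKM, 6609 at 10 to 30 FPKM and 2751 at 30 FPKM or more in gill. The low level in that library was thus shared by kidney transcripts outside the set that were low in gill. The upper quartile was -0.39, -0.34 and -0.18 in the first 3 classes and 0.54, 0.47 and 0.28 in the last 3, so that many transcripts present in gill were higher in that library than in the other 0 h kidney libraries. The 3 kidney libraries of 24 h had medians between -0.08 and 0.12 in all 6 classes.

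**Figure D4:**
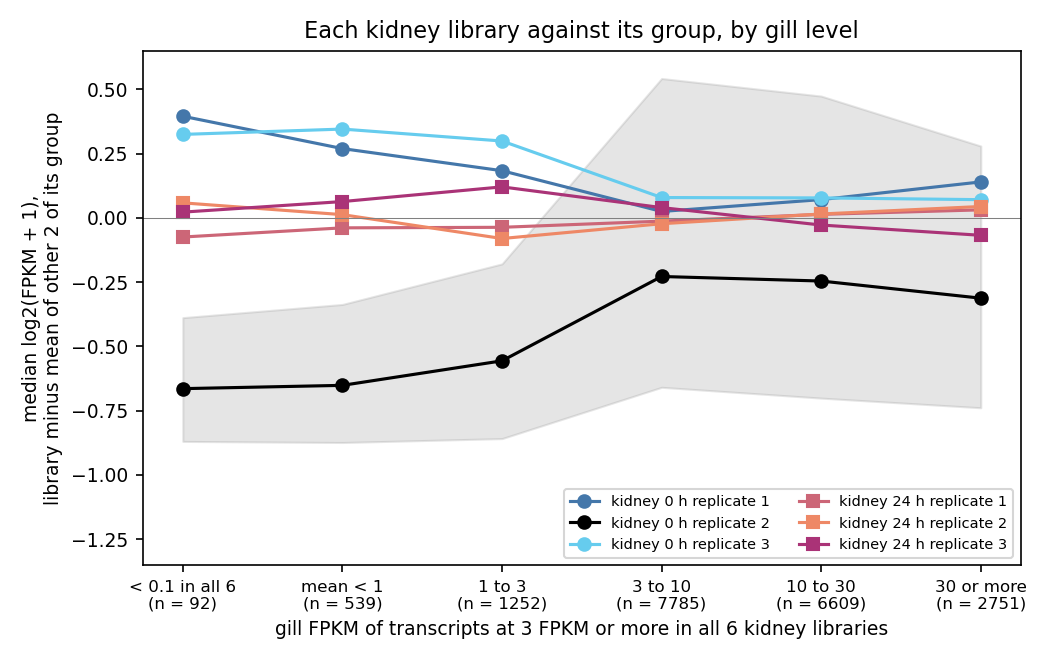
Median log2 difference of each kidney library from the mean of the other 2 of its group, for transcripts at 3 FPKM or more in all 6 kidney libraries, in 6 classes of gill level; the band spans the quartiles of kidney 0 h replicate 2. That library lies at -0.66 in the lowest gill class and at -0.31 in the highest, while the 24 h libraries stay near 0.

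Scaling changed the deficit of the members and that of the 19028 transcripts together. As deposited, their median log2 differences were -0.67 and -0.30, and with equal totals they were -0.68 and -0.31. With median-ratio scaling, which sets the library's own factor at 0.849, the members' median was -0.44 and that of the 19028 transcripts was -0.07. With quantile normalization the medians were -0.53 and -0.23. The members stayed below the other 0 h libraries in 71 of 83 cases under median-ratio scaling and in 75 under quantile normalization. Markers of other cell types could not be matched in this table, and the part of tissue composition in the deficit was not tested. Among the 205 gill-limited steady transcripts, gill 0 h replicate 3 was the lowest gill library for 59, with a median log2 difference of -0.22 from the other gill libraries of 0 h. Applied without kidney 0 h replicate 2, the rule took 126 transcripts of 137 kidney-limited ones, kept 81 of the 83 members and added 45. Of the added transcripts 42 were below 3 FPKM in the omitted library. There the median of the 45 was 2.40 FPKM against 5.10 FPKM in the other kidney libraries. A transcript could be added only if it failed the floor or the time limit with that library. These values thus follow largely from the rule.

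Each ID ends in a number from 1 to 4 after the part that Trinity writes, which neither the labels nor the file header explain. Of the members 47 (56.6%) ended in 3, 21 (25.3%) in 1 and 15 (18.1%) in 4, and none in 2. The shares among the 19028 transcripts were 31.1%, 25.7%, 23.4% and 19.8% for 3, 1, 4 and 2. The 205 gill-limited steady transcripts ended in 1 in 34 cases, in 2 in 91 and in 4 in 80, with none in 3. The median kidney difference between times was 0.52 for members ending in 1, 0.09 for those ending in 3 and 0.28 for those ending in 4. Without kidney 0 h replicate 2 these medians were 0.25, -0.10 and -0.06.

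The IDs also group transcripts by origin in the assembly. Trinity sorts reads into clusters, splits a cluster into components, and writes genes and isoforms for each component. Transcripts of a component thus come from the same part of the assembly, but different genes of a component need not share sequence. The table holds 1 transcript for each Trinity gene within each final number, so no member had another isoform to compare. At the level of components, 24 components held 25 members and 50 transcripts that were not members. These neighbours are a readout that the rule did not choose, apart from having failed it, and the comparison by components was added after the data were seen. Neighbours of a component can be pieces, copies or variants of a gene, or other genes. Fragments can be assigned between those alike in sequence, so they are not taken as independent of the members or of each other.

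Most neighbours were also higher in kidney. The kidney mean was above the gill mean for 43 of 50, against 53.5% of all transcripts. In limma 30 of the 49 neighbours tested passed as higher in kidney at an adjusted p under 0.05, averaged over both times, against 19.8% of all transcripts tested, and 3 passed as higher in gill, against 21.8%. All 11 neighbours below 0.1 FPKM in every gill library were among the 30. These 11 reached the filter of 1 FPKM in 3 libraries through kidney alone, so their call was largely set by the filter. Their spread in the shared model was also lowered by the gill libraries, where they hardly vary. Further neighbours of the 30 also stayed below 1 FPKM in every gill library and reached the filter through kidney alone. Among them were TRINITY_DN28116_c2_g1_i11_3 and TRINITY_DN27475_c0_g2_i4_3, with highest gill values of 0.584 and 0.173 FPKM. Together with the 11, neighbours of this kind made up most of the 30. How much of the 30 against 19.8% comes from the filter was not tested, so nothing is read from that excess. The median difference of kidney from gill was 1.06 on the log2 scale over the neighbours and 0.05 over all transcripts tested. With each library left out in turn, between 27 and 32 neighbours passed as higher in kidney. Components were taken within 1 final number of the ID. No member ends in 2, so no neighbour does, against 24.2% of all transcripts. The shares over all transcripts are thus from another mix of final numbers, and the part of that number in the excess was not tested. Of 36 tested transcripts whose IDs match a member's up to the gene under another final number, 6 passed as higher in kidney and 12 as higher in gill. It is unknown if these are related to the members in sequence.

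Near absence from gill was not shared by most neighbours. Of the 50, 17 were at 1 FPKM or more in all 6 gill libraries, in 13 of the 24 components. A further 11 were below 0.1 FPKM in every gill library, of which 8 had 0 throughout, and all 11 had missed the floor of 3 FPKM in some kidney library. The missed floor follows largely from the rule. Such a transcript that met the floor would have been a member, unless it failed the limit over time. In 7 of the 24 components every neighbour was below 0.1 FPKM in all gill libraries. The shares of all transcripts at these gill levels are not given here. The counts thus describe the neighbours and do not set them apart from other transcripts.

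Some neighbours were likewise higher in kidney than in gill, but not all of them were nearly absent from gill. TRINITY_DN28116_c2_g1_i11_3 had a mean of 52.0 FPKM in kidney and 0.140 FPKM in gill. The difference of 5.52 ± 0.19 (SE) on the log2 scale had an adjusted p of 7.54e-10 in limma. With at most 0.584 FPKM in gill, this transcript reached the filter through kidney alone. Its call was thus largely set by the filter, and its p is not read as support. TRINITY_DN26385_c0_g1_i11_3, a neighbour of one of the lowest members, had the highest kidney mean of the neighbours. It was at 66.5 FPKM against 3.74 FPKM in gill, a difference of 3.84 ± 0.18 (SE). Its gill values ran from 1.82 to 5.01 FPKM, so it was not limited to kidney. In the 18 alternative fits the highest adjusted p of limma for TRINITY_DN26385_c0_g1_i11_3 was 1.96e-07. The component TRINITY_DN21316_c0 was the one with more than 1 member. Its member g3_i1 was at 24.3, 8.86 and 12.5 FPKM at 0 h and at 31.0, 24.9 and 18.2 FPKM at 24 h, and its member g1_i2 was at 7.11, 3.72 and 5.53 FPKM at 0 h and at 6.99, 8.41 and 6.63 FPKM at 24 h. Both were lowest in kidney 0 h replicate 2. Their neighbour g2_i1 averaged 14.6 FPKM in kidney and 0.0840 FPKM in gill.

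Other members stood beside neighbours that were abundant in gill. TRINITY_DN30989_c1_g1_i1_1 was at 17.8, 13.3 and 13.9 FPKM in kidney at 0 h, at 16.1, 19.7 and 32.3 FPKM at 24 h, and at no more than 0.0722 FPKM in gill. Its neighbour TRINITY_DN30989_c1_g3_i5_1 was at 52.1 to 71.9 FPKM in the gill libraries and at 29.4 to 65.1 FPKM in the kidney libraries. The ranges of the 2 tissues overlapped, and the difference of -0.32 ± 0.16 (SE) had an adjusted p of 0.123 in limma, with 0.0373 to 0.314 over the 18 alternative fits.

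TRINITY_DN27831_c5_g1_i4_3 was at 6.62, 3.39 and 9.30 FPKM in kidney at 0 h and at 7.06, 9.07 and 8.95 FPKM at 24 h, and at no more than 0.0863 FPKM in gill. Its neighbour TRINITY_DN27831_c5_g2_i1_3 was at 16.2 to 75.4 FPKM in gill and at 19.7 to 29.9 FPKM in kidney. It passed as higher in gill, with a difference of -0.89 ± 0.26 (SE) and an adjusted p of 0.0165 in limma, which ran from 0.0011 to 0.0438 over the 18 alternative fits, although the ranges of the libraries overlapped. The others past the threshold as higher in gill were TRINITY_DN28031_c1_g4_i1_1, by -0.96 ± 0.18 (SE) with an adjusted p of 0.0011 in limma, and TRINITY_DN26182_c1_g6_i2_3, by -0.52 ± 0.14 (SE) with an adjusted p of 0.0098. Both also passed in all 18 alternative fits. Within these components, transcripts limited to kidney and transcripts of both tissues therefore occurred together.

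**Figure D5:**
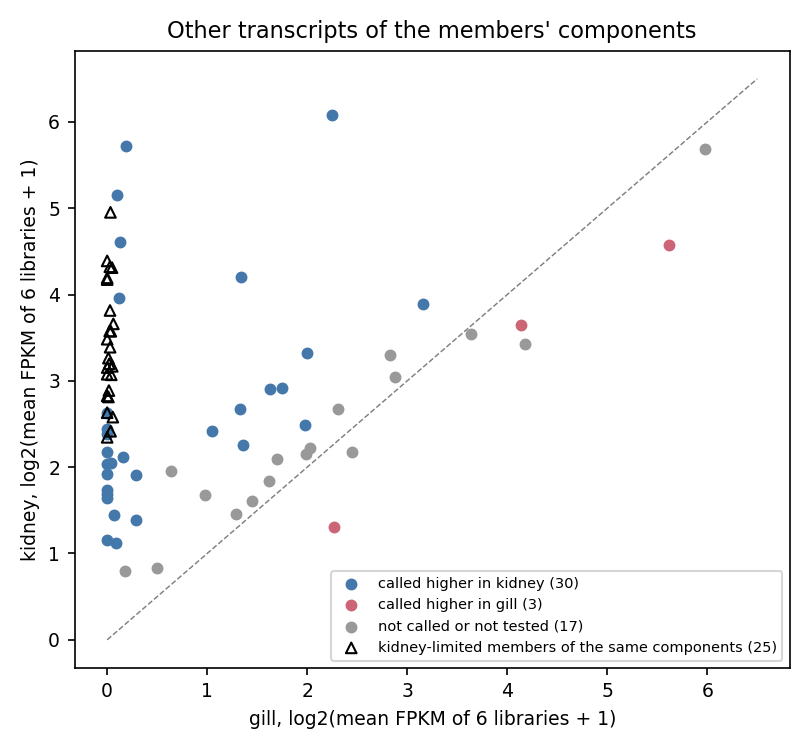
Mean FPKM in kidney against mean FPKM in gill, on log2(FPKM + 1) axes, for the members of the 24 components with neighbours and for the 50 neighbours. The members lie at the left edge by the rule, and 43 of the 50 neighbours have a kidney mean above the gill mean.

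Few neighbours passed the adjusted threshold over time, which with 3 libraries per group does not show that the others were steady. A single neighbour of 49 passed between the kidney times in limma, against 0.824% of all transcripts tested, and 11 had an unadjusted p under 0.05. The median kidney change was 0.28 over the neighbours and 0.10 over all transcripts tested. Both medians include kidney 0 h replicate 2, without which the members' excess was not present. They are not given without that library, so nothing is read from their difference. The largest kidney change of a neighbour, 2.14 ± 0.47 (SE) in TRINITY_DN30989_c1_g4_i1_1, did not pass, with an adjusted p of 0.0643 in limma. The neighbour that passed was TRINITY_DN28011_c1_g1_i3_3, higher at 24 h by 1.15 ± 0.20 (SE) on the log2 scale with an adjusted p of 0.0245 in limma. Over its 19 alternative fits the adjusted p ran from 0.0214 to 0.186, the highest being that of the fit to kidney alone. None passed between the gill times in limma, against 0.848% of all transcripts tested, and 6 had an unadjusted p under 0.05. None passed for the difference between the kidney change and the gill change, against 0.0502%, with 7 at an unadjusted p under 0.05. Shares of all transcripts tested at that unadjusted level are not given here, so nothing is read from the unadjusted counts.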

How the data were processed

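The authors deposited FPKM values for 84875 transcripts, with 1 column per library, per the file headers. TRIzol served to extract total RNA, per the labels' protocols, and Trimmomatic is named in the submitters' processing notes. How reads were assembled, aligned and counted is not stated in the sources used here. FPKM values are not counts, so no count model was fitted. The precision of single values is unknown, because the number of fragments is.

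Tissue and time in the labels gave the groups. The members and the rules for the transcripts named were chosen with earlier results of these data known. Named are the 4 members with the highest and the 2 with the lowest kidney mean, those with the largest and most negative difference between times and the transcripts just outside the limits, and those with the smallest and largest spread. Components and their neighbours were added after seeing the data, in place of isoforms of the members' genes, of which the table holds none.

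Tests used limma 3.58.1 under R 4.3.3 (a linear model per transcript, moderated by eBayes with trend) on log2(FPKM + 1), computed from the deposited FPKM for the 75716 transcripts with 1 FPKM or more in at least 3 of 12 libraries. The log2 differences understate changes of low transcripts. Calls were two-sided at a Benjamini-Hochberg adjusted p under 0.05, and the procedure was tested on simulated data. Alternatives changed the thresholds, pseudocount, filter, scaling, libraries and fit. Replicate numbers are those of the sample titles. For the last replicate of every group but kidney 24 h they differ from the number in the column name. After subtracting group means, libraries of the same replicate number correlated at 0.109 to 0.137 between gill 24 h and kidney 24 h. Between the other groups they correlated at -0.0632 to 0.0915, so the replicate numbers were not taken to pair the 2 kidney times. The tissue contrast was also fitted unpaired, and a fit with the replicate number as a block is given below.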

Additional observations from a re-analysis of the deposited data

How the results depend on the processing

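The size of the set depended on its limits: 240 transcripts with a gill ceiling of 0.5 FPKM, 361 with a kidney floor of 1 FPKM, 17 with a floor of 10 FPKM and 22 when listed at 0 in all gill libraries, against 83. Quantile normalization gave 148, and leaving out each library gave 79 to 126, the highest without kidney 0 h replicate 2. Members whose interval lay within the limit numbered 46, 11 with a pseudocount of 0.1, 33 in kidney alone, and 37 to 61 with each library left out. The members' median kidney difference of 0.23 ran from -0.016, without kidney 0 h replicate 2, to 0.34 with single kidney libraries left out. It was 0.10 under median-ratio scaling, which moved the median of all tested transcripts from 0.10 to 0.00. Kidney 0 h replicate 2 was the lowest kidney library for 42 members under that scaling, 49 under quantile normalization and 60 otherwise. The neighbour past the threshold between kidney times was lost in kidney alone (0), and the count ran from 0 to 2 with each library left out: it was 0 without kidney 24 h replicate 1, 2 or 3 and 2 without gill 24 h replicate 2 or kidney 0 h replicate 1. With the replicate number as a block, 41 intervals lay within the limit, 31 neighbours were higher in kidney, 1 differed between kidney times and 0 between gill times.

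No other transcript shared a Trinity gene with a member, so alternatives for such transcripts could not give a value, except that ignoring the final number of the ID gave 36 tested transcripts. Of these, 18 passed between the tissues, 6 higher in kidney, against 19.8% of all transcripts tested, and 12 higher in gill, against 21.8%. Between times 0 passed in either tissue, against 0.824% in kidney and 0.848% in gill. With untested ones included there were 42, of which 19 had a kidney mean above the gill mean, against 53.5% of all transcripts. The excess higher in kidney among the component neighbours was not seen in this group. Because the final number is unexplained, it is unknown if these transcripts are related in sequence to the members. No conclusion is drawn from them. FPKM near 0 stands for few fragments, so near absence from gill is limited by depth.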
